A study of Mus musculus with 6 samples.

Results

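The 9 genes described here encode the enzymes that remove superoxide and peroxides: the superoxide dismutases Sod1, Sod2 and Sod3, the copper chaperone Ccs, catalase (Cat), and the glutathione peroxidases Gpx1, Gpx3, Gpx4 and Gpx7. They were taken by name, as every probe set that the platform annotation assigned to exactly 1 of these symbols. That assignment uses no expression value, but the genes were chosen with earlier results of these data known. This gave 66 of 241576 probe sets and 9 of 20352 annotated genes. Stem cells that carried c-Kit and Sca-1 but neither lineage markers nor CD34 on their surface had been sorted from mouse bone marrow, and their RNA was hybridised as biotinylated cRNA to 6 arrays. The control group had 3 arrays and the other group, called floxed here, had 3 arrays of mice with floxed beta-catenin (Ctnnb1) alleles and the Vav-Cre transgene, whose promoter is active in blood-forming cells. Strain, age, and whether the controls carried Vav-Cre or floxed alleles are not given in the sources used here. Nothing in the labels says whether replicates were separate animals or pools; p-values therefore reflect variation among these samples that may be technical.

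Superoxide leaks from the respiratory chain and is made by oxidases; dismutases turn it into hydrogen peroxide, and catalase and the peroxidases turn hydrogen peroxide into water. Catalase works in peroxisomes without a co-substrate, whereas glutathione peroxidases spend glutathione, which is then regenerated. Blood stem cells are largely quiescent, and raised oxidant levels are known to push them out of quiescence. The series is titled for oxidative stress, and the comparison asks whether transcripts of these enzymes differ between control and floxed stem cells.

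Among the 8 genes of this set that could be tested, 4 lay on the higher side and 4 on the lower side in floxed arrays, and 0 passed a limma adjusted p of 0.05. Cat and Gpx4 had the smallest unadjusted p, with log2 differences of −0.21 and 0.22. Over all 14586 genes 0 passed as well (0% called, smallest limma adjusted p = 0.667). In this main fit 540 genes (3.70%) had an unadjusted p under 0.05, against 0 of the 8. The count for the set depended on the settings, as given at the end. In none of the 8 were the groups apart, compared with 8.44% of all genes. All 8 had 95% confidence intervals within 1 log2, a doubling or halving, of no difference. The median log2 difference was 0.01 over the 8 and 0.02 over all genes.

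The arrays themselves were not equally alike. Across genes, which are not independent replicates, pairs of control arrays correlated at 0.880 to 0.934, and pairs of floxed arrays at 0.962 to 0.972. Control replicate 3 held the lowest value of 34.7% of all genes. The Ctnnb1 check gave 5 of 16 kept probe sets with a passing drop, from −6.90 to −2.51 log2, and 0 with a rise. In the gene fit, which takes the median over kept probe sets, Ctnnb1 did not pass, so a drop in part of a gene can be missed there. Of 14 stem cell gate and identity genes, 12 were kept. Cd34, whose protein the sort selected against, was nevertheless at 12.68 ± 0.03 log2 (SD, n = 3) in controls. The gate acts on surface protein and is not checked by RNA.

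Signal differed among the 9 genes in how much of it could be used. A probe set was kept if its 6-array mean was at or above 7.60 log2, the median of such means. By that filter 45 of the 66 were kept, 26 of them higher in floxed arrays (58.8% of all kept probe sets were): 15 of 16 for Cat, 8 of 9 for Gpx4, 7 of 8 for Sod2, 5 of 5 for Sod1, 3 of 3 for Gpx1, 5 of 10 for Ccs, 1 of 6 for Gpx3, 1 of 4 for Gpx7 and 0 of 5 for Sod3. Just inside the filter lay a Ccs probe set at 7.80 and just outside it another at 7.50. Olfactory receptor genes, which are not thought to be expressed in blood cells, give a description of silent signal: the 95th percentile of their 1210 probe sets was 6.43, and 10 of them were kept by the filter. Of the 66 probe sets 58 lay above that percentile, including 2 of 5 for Sod3 and 3 of 6 for Gpx3. No detection call was made from this. Levels of different probe sets depend on their sequences, so no order of levels between genes is read from these arrays.

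**Figure D1:**
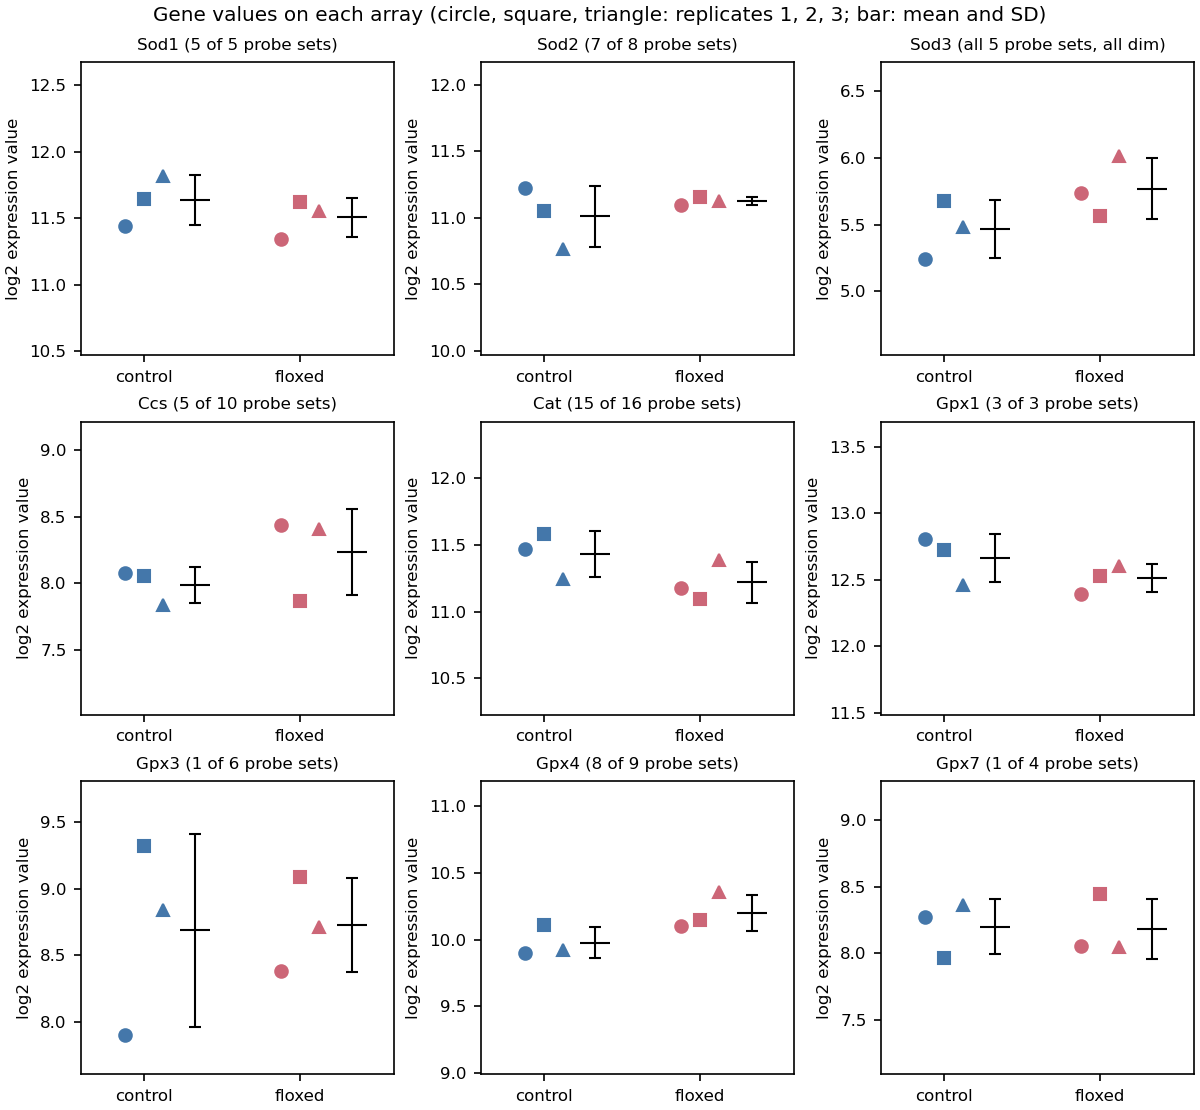
Log2 value of each of the 9 genes (vertical axis, each panel spanning 2.2 log2) on the 3 control (blue) and 3 floxed (red) arrays; circles, squares and triangles are replicates 1, 2 and 3, and the bar is the mean with its SD. The groups overlap in every panel; Gpx3 has the widest spread, from 7.90 to 9.32, and Sod3 is drawn from all of its probe sets because all were dim.

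What precedes these genes on the chromosome is shown for Sod1 and Cat, from the RefSeq promoter table of GRCm38.p6. Both are the 250 bases before the start of the gene, Sod1 at chr16:90220512-90220761 on the plus strand and Cat at chr2:103485154-103485403 on the minus strand, written 5′ to 3′ along the gene. Sod1 is shown because it was the only gene of the set whose window held the letters of the antioxidant response element, the motif of the oxidant sensor NRF2. Cat is shown because it had the most probe sets on the lower side. Capitals mark matches on either strand. The antioxidant response element was searched as TGACNNNGC. The Sp1 GC box was searched as GGGCGG, and its matches overlap pairwise in Sod1. The TATA box was searched as TATAAA.
Sod1: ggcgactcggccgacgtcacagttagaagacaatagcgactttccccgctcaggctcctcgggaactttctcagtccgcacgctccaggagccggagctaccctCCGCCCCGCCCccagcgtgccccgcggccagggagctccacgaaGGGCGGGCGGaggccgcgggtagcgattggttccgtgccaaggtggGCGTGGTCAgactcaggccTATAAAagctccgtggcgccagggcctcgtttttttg
Cat: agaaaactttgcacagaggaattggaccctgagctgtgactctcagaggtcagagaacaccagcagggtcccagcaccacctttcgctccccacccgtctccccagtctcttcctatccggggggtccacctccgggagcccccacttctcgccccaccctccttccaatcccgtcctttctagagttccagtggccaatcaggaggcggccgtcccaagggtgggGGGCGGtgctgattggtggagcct

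In the Sod1 window the antioxidant response element letters lay 56 bases and the TATA box 37 bases before the start, with 4 matches to the GC box. The Cat window held 1 match to the GC box, 24 bases before the start, and neither of the other motifs. Over all 32851 windows in the table, 10.2% held the antioxidant response element, 32.7% the GC box and 12.4% the TATA box. The TCF/LEF letters CTTTGAT, by which beta-catenin's DNA-binding partners are known, stood in 3.21% of all windows and the FoxO letters GTAAACA in 3.17%, and in 0 of the 10 windows of the 7 genes of the set that the table lists. Ccs and Sod3 had no entry. A match is a description of letters and no binding site, and a window without them says nothing about the factor.

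Sod1, the copper-zinc dismutase of the cytosol, had log2 gene values of 11.44, 11.65 and 11.82 on control replicates 1 to 3 and 11.34, 11.62 and 11.56 on floxed replicates 1 to 3. The floxed values lay inside or just below the control range. The difference was −0.13 (SE 0.13, 95% confidence interval −0.41 to 0.15, limma adjusted p = 0.999). Leaving out control replicate 1 gave −0.23, whereas leaving out control replicate 3 gave −0.04 and leaving out floxed replicate 1 gave −0.05. The sign rested on a single probe set. The gene value is the median over 5 probe sets, and on all 6 arrays that median was the same probe set, the only 1 of the 5 that was lower in floxed arrays. The other 4 differed by 0.12, 0.08, 0.38 and 0.07 log2, and with the mean over the probe sets Sod1 turned to 0.11. The probe set that differed by 0.07 has a number far from the run of the other 4; without it the gene value was −0.03.

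Ccs, which loads copper into SOD1, was near the filter. Its values were 8.08, 8.05 and 7.83 in controls, against 8.44, 7.87 and 8.41 in floxed arrays. Floxed replicates 1 and 3 were above every control, and floxed replicate 2 was close to the lowest. The difference was 0.25 (SE 0.20, 95% confidence interval −0.19 to 0.69, limma adjusted p = 0.999), and 0.44 without floxed replicate 2. Leaving out control replicate 3 gave 0.13, and leaving out floxed replicate 1 or 3 gave 0.15 or 0.16. Of its 5 kept probe sets 4 were higher in floxed arrays, and all 5 below the filter were higher too, by 0.03 to 0.60 log2. Control replicate 3 held the lowest gene value of the 6 arrays.

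Sod2, the manganese dismutase of mitochondria, had 11.22, 11.05 and 10.77 in controls, against 11.09, 11.15 and 11.13 in floxed arrays. The floxed arrays were closely grouped (SD 0.03) inside the control range (SD 0.23). The difference was 0.11 (SE 0.13, 95% confidence interval −0.18 to 0.40, limma adjusted p = 0.999). It leaned on control replicate 3, the lowest array, and was −0.01 without it; without control replicate 1 it was 0.22. Of 7 kept probe sets 6 were higher in floxed arrays, between 0.11 and 0.36 log2, and the other was at −0.06.

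Sod3, the secreted dismutase of the extracellular space, had no kept probe set and no test in the filtered fit. The median over its 5 dim probe sets was 5.24, 5.67 and 5.49 in controls, against 5.74, 5.56 and 6.01 in floxed arrays. These values overlapped. In the fit without a filter the difference was 0.30 (SE 0.20, limma adjusted p = 0.915), and the 5 probe sets ran from −0.54 to 0.69 in difference, so they did not move one way.

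Catalase had the most probe sets of the set, 16, and the most kept ones on the lower side in floxed arrays, 12 of 15. Its gene values were 11.47, 11.58 and 11.25 in controls, against 11.17, 11.09 and 11.39 in floxed arrays. Floxed replicates 1 and 2 were below every control, and floxed replicate 3 was above control replicate 3. The difference was −0.21 (SE 0.13, 95% confidence interval −0.49 to 0.07, limma adjusted p = 0.999), a ratio of 0.862 with an interval from 0.710 to 1.05. An exact permutation test gave p = 0.2, two-sided, where 3 against 3 arrays allow no less than 0.1. The difference was −0.14 without control replicate 2, −0.28 with the mean over the probe sets and −0.35 with array weights (limma adjusted p = 0.0744). It passed under none of these.

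On single probe sets, 12 of the 15 kept for Cat were lower in floxed arrays, from −0.56 to −0.04, and the other 3 were at 0.02 or less. Probe sets of a gene share arrays and transcripts and are not replicates. Of the 15, 6 had an unadjusted p under 0.05 on the lower side and 0 passed after adjustment (smallest limma adjusted p = 0.975). Over all 120788 kept probe sets, 4.35% had an unadjusted p under 0.05, 1.14% on the lower side, and 5 passed (0.00414%), all of Ctnnb1. Among the 4123 genes with at least 10 kept probe sets, 4.73% had at least 80% of them lower, and 0.291% had at least 40% of them lower at that unadjusted p; these 2 shares are Cat's own, so that Cat meets them is no result.

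The differences were not even along the run of probe set numbers. On the sixth in number the values were 11.58, 11.33 and 11.25 in controls, against 10.70, 10.66 and 11.11 in floxed arrays (difference −0.56, SE 0.16). On the seventh they were 12.12, 12.24 and 12.09 against 11.60, 11.53 and 11.91 (−0.47, SE 0.13). On both, every floxed array was below every control, as on 1 more kept probe set, the eleventh; over all kept probe sets the groups were apart with floxed lower in 2.98%. By contrast, the twelfth and fourteenth differed by 0.02 each and the thirteenth by −0.04. The sources used here do not place probe sets on exons. The difference between each Cat probe set and the others of the gene did not pass (limma with Simes per gene, adjusted p = 1; unadjusted p = 0.154). In that test 1 of 11831 genes passed (0.00845%), Ctnnb1, and 2.17% had an unadjusted p under 0.05.

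**Figure D2:**
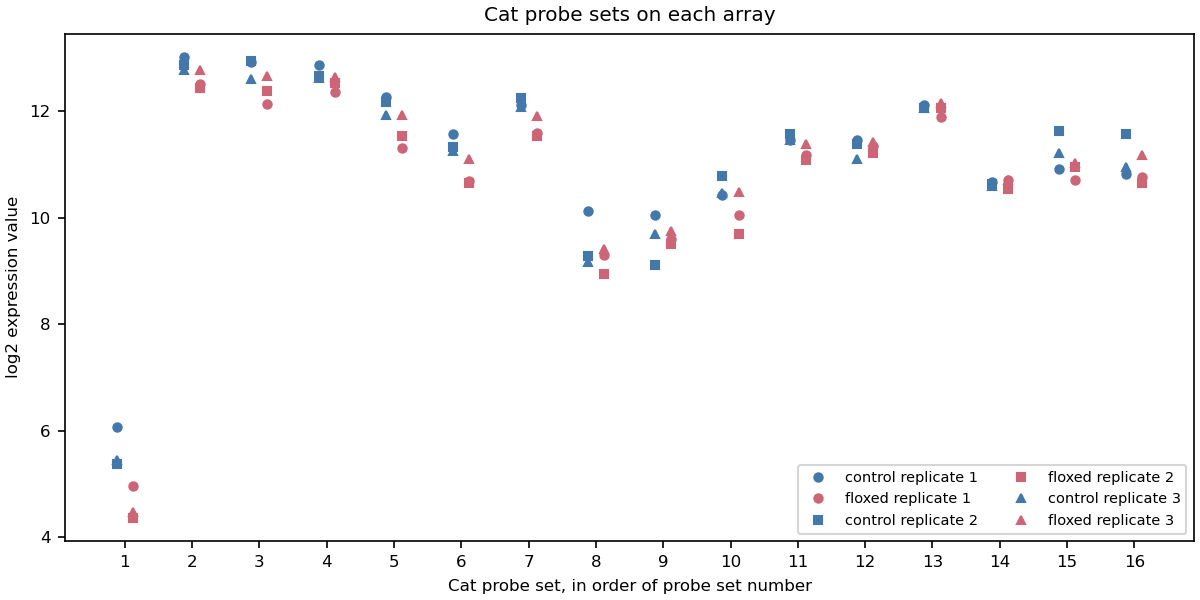
Log2 value (vertical axis) of each of the 16 Cat probe sets in order of their number (horizontal axis) on the 3 control (blue) and 3 floxed (red) arrays; symbols mark replicates 1, 2 and 3. The floxed mean is lower on probe sets 2 to 7, but floxed replicate 3 lies above control replicate 3 on probe sets 2 to 5, and all red symbols lie below all blue ones only on kept probe sets 6, 7 and 11; blue and red coincide on probe sets 12 to 14; the dim probe set 1 was not kept.

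**Figure D3:**
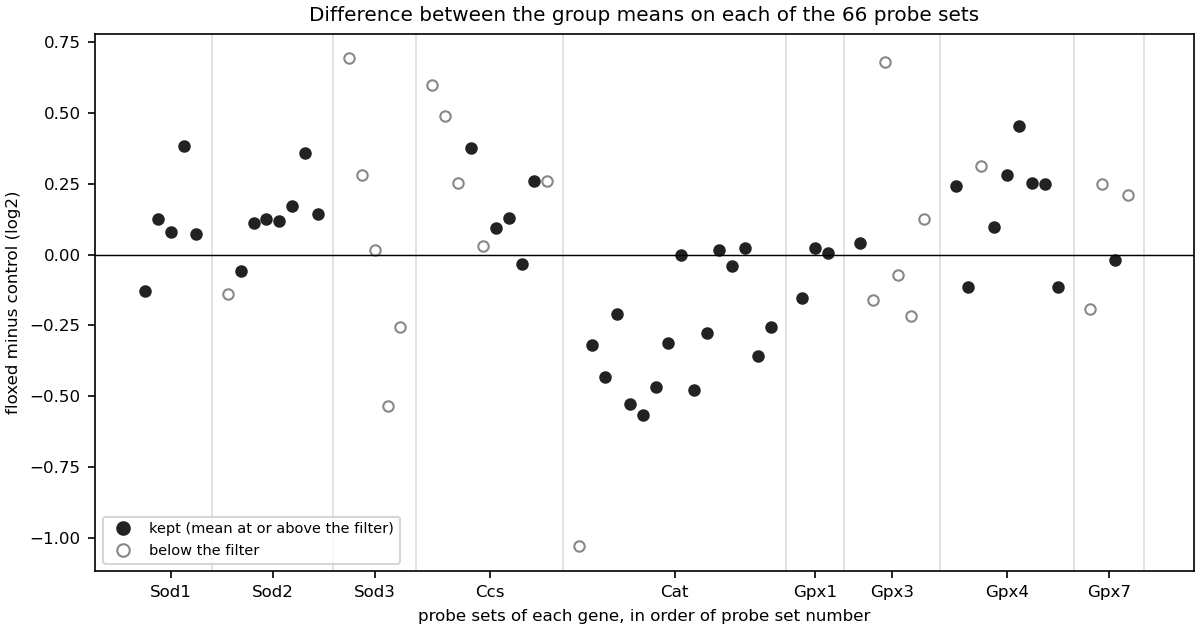
Floxed minus control difference of group means (vertical axis, log2) for each of the 66 probe sets, grouped by gene and ordered by probe set number; filled points were kept and open points lay below the filter. Kept Cat points reach −0.56 and kept Gpx4 points reach 0.45, while the largest differences of all, such as −1.03 for Cat and 0.69 for Sod3, are on open points.

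Gpx1, the selenium-dependent peroxidase of cytosol and mitochondria, had 12.80, 12.72 and 12.46 in controls, against 12.40, 12.53 and 12.60 in floxed arrays. Control replicates 1 and 2 were above all floxed arrays, and control replicate 3 was among them. The difference was −0.15 (SE 0.11, 95% confidence interval −0.39 to 0.09, limma adjusted p = 0.999). As for Sod1, the median was 1 probe set on all 6 arrays; the other 2 differed by 0.02 and 0.01, and the mean over the 3 gave −0.04. Leaving out control replicate 3 gave −0.25, leaving out control replicate 1 gave −0.08 and leaving out floxed replicate 1 gave −0.09.

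Gpx4, which reduces lipid peroxides in membranes and guards cells against ferroptosis, had 9.90, 10.11 and 9.92 in controls, against 10.10, 10.15 and 10.35 in floxed arrays. The groups overlapped only through control replicate 2, which was above floxed replicate 1 by 0.01 log2. The difference was 0.22 (SE 0.13, 95% confidence interval −0.07 to 0.51, limma adjusted p = 0.999), a ratio of 1.17 with an interval from 0.953 to 1.43. It was 0.15 without floxed replicate 3. Of 8 kept probe sets 6 were higher. The largest difference was 0.45 (SE 0.17), with 9.72, 9.58 and 9.63 in controls, against 10.16, 9.91 and 10.23 in floxed arrays. There the groups did not overlap, and 6.46% of all kept probe sets were apart in this direction. The unadjusted p of that probe set was under 0.05, as for 3.21% of all kept probe sets on the higher side, and its limma adjusted p was 0.975.

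The remaining 2 kept Gpx4 probe sets, both at −0.11, held identical values on all 6 arrays under different numbers and are 1 measurement. The 66 probe sets are therefore 65 distinct measurements. One of that pair, and another Gpx4 probe set, have numbers outside the run of the other 7; without those 2 the gene value was 0.23.

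Gpx3, the peroxidase secreted into plasma, rested on 1 kept probe set. Its values were 7.90, 9.32 and 8.84 in controls, against 8.38, 9.09 and 8.71 in floxed arrays. The floxed arrays lay within the controls, which spanned 1.42 log2, a range at least as wide as that of 97.9% of genes tested. Most of those genes have values that are medians over more than 1 kept probe set, so the ranges are not like measures. The difference was 0.04 (SE 0.32, limma adjusted p = 0.999). Leaving out control replicate 1 gave −0.35, leaving out floxed replicate 2 gave −0.14 and leaving out control replicate 2 gave 0.36, so no direction can be given. The other 5 probe sets were below the filter.

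Gpx7, an endoplasmic reticulum enzyme that lacks the selenocysteine of Gpx1, Gpx3 and Gpx4, also rested on 1 kept probe set. It had 8.28, 7.97 and 8.36 in controls, against 8.06, 8.45 and 8.05 in floxed arrays. The difference was −0.02 (SE 0.19, limma adjusted p = 0.999). Leaving out control replicate 1 or 3 gave 0.02 or 0.06, and leaving out floxed replicate 1 or 3 gave 0.05. The remaining family genes Gpx2, Gpx5, Gpx6 and Gpx8 had 0 kept probe sets of 18, at means from 3.58 to 6.86.

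Catalase is abundant in red blood cells and their precursors, so markers of other blood cells were set beside it. Cat deviated from its own mean over the 6 arrays by 0.14, 0.26 and −0.08 log2 in controls and by −0.15, −0.23 and 0.06 in floxed arrays. The mean of 9 kept erythroid markers, of 13 listed, deviated by 0.12, 0.34 and −0.01 in controls, against −0.33, −0.36 and 0.24 in floxed arrays. Cat and these markers were both lowest on floxed replicates 1 and 2 and highest on control replicate 2. All 9 erythroid markers lay on the lower side in floxed arrays (median −0.32) and 0 passed. Over all genes, 54.2% lay on the higher side and 1.28% had an unadjusted p under 0.05 on the lower side. These shares stand beside the counts of every marker list here. An unadjusted p under 0.05 was found for Epor (−0.48), the erythropoietin receptor gene, and Alas2 (−0.40), which encodes a haem synthesis enzyme. Car1, which encodes a carbonic anhydrase, was at 13.10 ± 0.17 and 12.96 ± 0.17 (SD, n = 3 each), and their summed linear signal was 20848 to 21905 in controls and 16775 to 22202 in floxed arrays.

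The mean of 13 granulocyte markers deviated by 0.44, 0.52 and −0.44 in controls, against −0.38, −0.35 and 0.21 in floxed arrays, with 10 lower (median −0.24) and 0 passing. An unadjusted p under 0.05 was found for the granule protein genes Mmp8 (−1.03, SE 0.36) and Ngp (−0.88, SE 0.28), both lower, whereas Mpo was at 0.05. Their summed linear signal was 12206 to 22938 in controls and 12437 to 18317 in floxed arrays. Gpx1 deviated by 0.22, 0.13 and −0.12 in controls, against −0.19, −0.06 and 0.02 in floxed arrays, with the same signs as the granulocyte markers on each array. The mean of 7 B cell markers had these signs too, at 0.78, 0.21 and −0.95 in controls, against −0.28, −0.14 and 0.39 in floxed arrays. So did the mean of the 10 lipid peroxide and ferroptosis genes read below. The same signs thus stood in lists other than granulocyte and erythroid markers, which is a description of 6 arrays only. Some values were near 0, with erythroid markers at −0.01 on control replicate 3 and Gpx1 at 0.02 on floxed replicate 3. No value on these arrays is 0, so no marker can be called absent. The part of other cells in the Cat and Gpx1 values was not tested, and in sorted bulk RNA fewer cells of a type and less RNA per cell cannot be told apart. Of the other lists, macrophage and monocyte markers had 5 of 9 lower, platelet markers 6 of 7, B cell markers 4 of 7, T and NK cell markers 5 of 6 and stroma and endothelium 6 of 8, with 0 passing in each. An unadjusted p under 0.05 was found in these 5 lists for Ly6c2 (−0.69, SE 0.19), a monocyte gene, and for no other member. The groups were apart for Ly6c2 and for Mrc1 (−0.41) of the same list, as in 8.44% of all genes in either direction. The log2 difference of Cd4 was −0.63 with overlapping groups. For C1qa it was 0.04, for Gp9 −0.20, for Cd79b −0.07, for Nkg7 0.07 and for Emcn −0.03. Markers with an unadjusted p under 0.05, and Cd4 and Mrc1, were named after their values were seen.

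**Figure D4:**
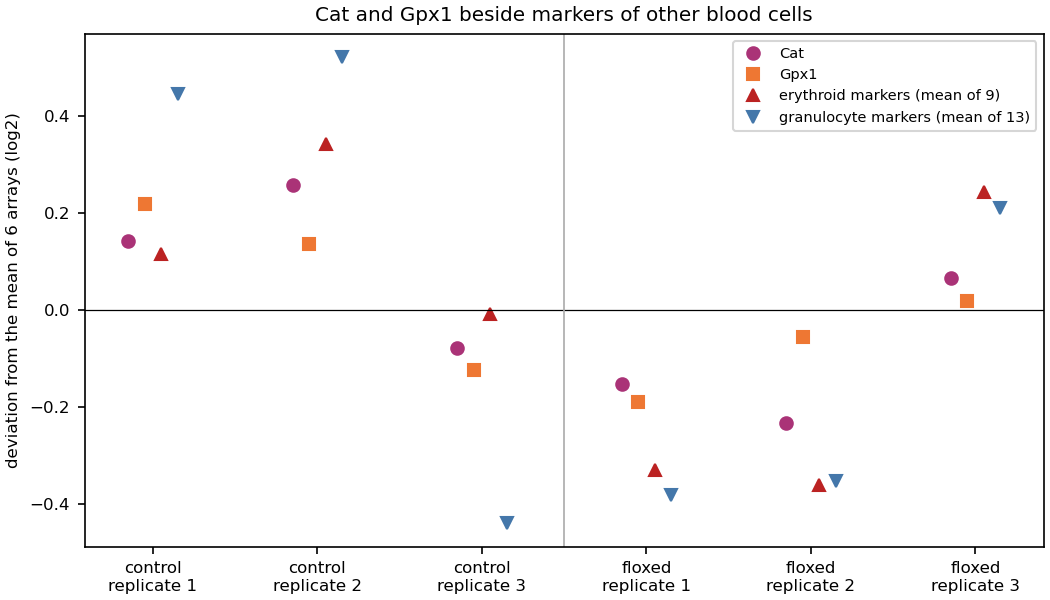
Deviation from the mean over 6 arrays (vertical axis, log2) of Cat, Gpx1, the mean of 9 erythroid markers and the mean of 13 granulocyte markers on each array. All 4 are above 0 on control replicates 1 and 2 and on floxed replicate 3, and below 0 on the other 3 arrays. B cell markers, not drawn, had the same signs.

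Genes that supply, regulate or share the work of these enzymes were read from 9 lists with 104 entries, of which 90 were tested and 0 passed. Of the 90, 58 were higher and 32 lower in floxed arrays, against 54.2% of all genes higher. An unadjusted p under 0.05 was found for 7 on the higher side and 2 on the lower, where 2.43% and 1.28% of all genes had one. Groups were apart, in either direction, in 8.44% of all genes. Each gene of the 90 with groups apart is marked below, and being apart is not read as a trait of these genes. Peroxiredoxins, the other large family of peroxide-reducing enzymes, together with sulfiredoxin had 6 of 7 higher with a median of 0.06. Prdx1 (0.47, SE 0.16) and Prdx4 (0.49, SE 0.17) had groups that did not overlap, and Prdx3, the mitochondrial member, differed by 0.50 (SE 0.22) with overlapping groups. All 3 had an unadjusted p under 0.05 and a limma adjusted p of 0.999. Thioredoxin and glutaredoxin genes had 8 of 10 higher (median 0.13), with Glrx2 and Glrx3 at 0.27 and 0.32. The groups were apart for Glrx2 and overlapped for Glrx3.

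Glutathione supply, which feeds the peroxidases, had 8 of 11 higher (median 0.08). Slc25a40, a mitochondrial carrier gene, had 0.48 and Gsr, which encodes the reductase that recycles glutathione, had 0.19. The list for selenoprotein synthesis, on which Gpx1, Gpx3 and Gpx4 depend, had 9 of 13 higher (median 0.09). Besides synthesis genes it held the selenoprotein genes Selenok, Selenop, Selenot and Selenow. Sars, which encodes the seryl-tRNA synthetase, had 0.37 (SE 0.12) with groups apart, and the selenoprotein gene Selenot had 0.17. Copper and manganese supply had 6 of 11 lower (median −0.06). The copper transporter gene Slc31a2 had the smallest unadjusted p of all 90, with 8.88 ± 0.22 in controls and 8.22 ± 0.02 in floxed arrays (SD, n = 3). Its difference was −0.66 (SE 0.16, limma adjusted p = 0.999), with groups apart. Atp7b, which encodes a copper pump, had −0.37 with overlapping groups.

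Genes of peroxisome import and peroxisomal oxidases, which bring catalase to its organelle or make its substrate, had 7 of 13 higher (median 0.09). Pex13 and Pex7, which encode parts of the import machinery, had 0.44 and 0.24, both with groups apart. Lipid peroxide and ferroptosis genes had 5 of 10 higher (median 0.00), with Acsl4 at −0.18 and Alox5 at −0.26. Regulators of the enzymes had 10 of 15 higher (median 0.04). Epas1, a hypoxia-inducible factor gene, had −0.64 (SE 0.23) and Keap1, the inhibitor of NRF2, had 0.38 (SE 0.15), both with groups apart and a limma adjusted p of 0.999.

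**Figure D5:**
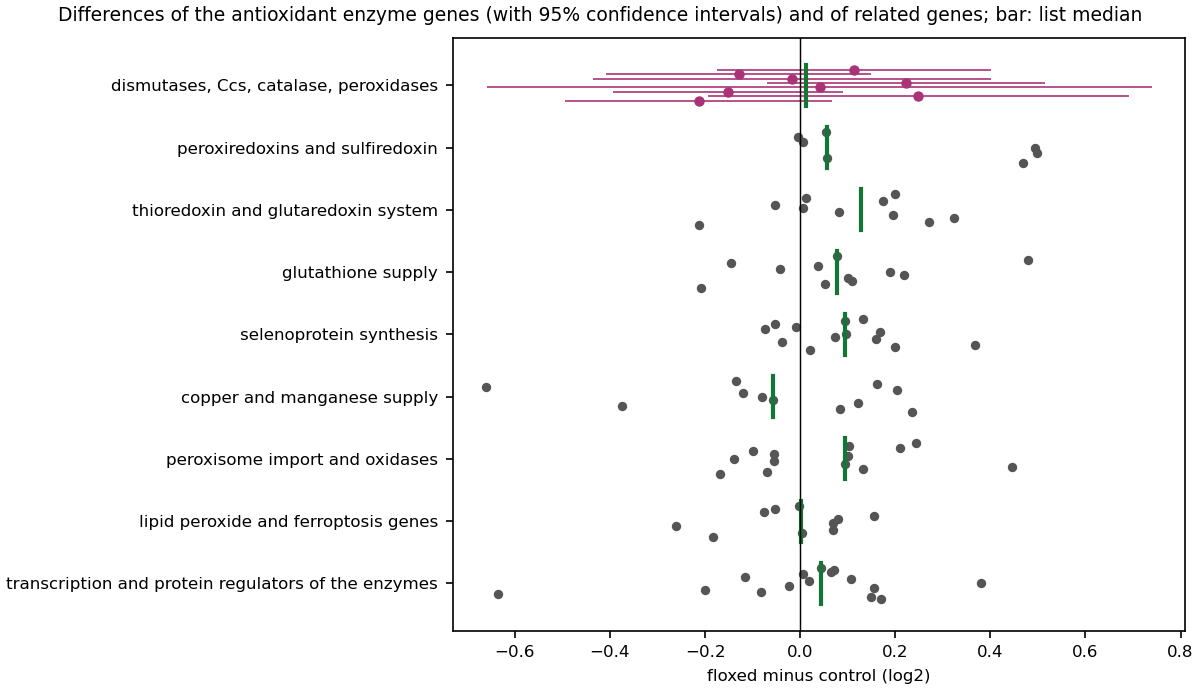
Floxed minus control difference (horizontal axis, log2) of the 8 tested genes of the set, with 95% confidence intervals, and of 90 related genes in 8 lists; green bars are list medians. The 8 intervals all cross 0, and the related genes lie between −0.66 and 0.50.

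For the 3 genes of the set with the widest range over the arrays, the genes nearest in pattern were found by the root mean square difference of mean-centred log2 values over 6 arrays, as a description that carries no test. Nearest to Cat were Fads3 (0.024 log2) and Trim65 (0.028) of 13767 candidates. For Ccs they were Ppil4 (0.055) and Rngtt (0.073) of 12913, and for Gpx3 they were Slc6a14 (0.12) and Mok (0.13) of 4225. With so many candidates and 6 shared arrays, near matches occur for any gene.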

How the data were processed

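The values used were the log2 expression values that the authors deposited for 241576 probe sets on 6 arrays; the log base was inferred from their range, 2.44 to 14.53. The tool MAS5 is listed, per the submitters' processing notes, without its role or version. How background was corrected and arrays were normalized is not given in the sources used here. Array medians were 7.56 to 7.65 and no further normalization was applied. The number of arrays limits the precision.

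Probe sets with 1 annotated symbol (212097) were named through a RefSeq table, and those with several (4475) or none (25004) were left out of gene values. A gene value was the median of the kept probe sets of a gene on an array. Differences of genes and of kept probe sets were fitted in limma 3.58.1 under R 4.3.3 (mean-variance trend, two-sided, Benjamini-Hochberg over all features tested). The steps were tested on simulated data. There limma's diffSplice, the test first chosen for probe sets within a gene, called too many unchanged genes, so each probe set was instead compared with the others of its gene.

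The genes of the set and all lists were chosen with earlier results of these data known. Named genes are all genes of the set, the 2 smallest p of each related list, and the nearest in pattern. From each marker list the gene with the highest mean signal was named (a way to choose, not a ranking). Cd4, Mrc1, Prdx3 and the markers with an unadjusted p under 0.05 were added after the values were seen. Alternatives were 2 normalizations, 2 filters, the mean of probe sets, 2 variance models, array weights, a block for the replicate number, and leaving out each array. Added after the data were seen were leaving out probe sets with stray numbers and the second test within genes.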

Additional observations from a re-analysis of the deposited data

How the results depend on the processing

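None of the 9 genes and none of their probe sets passed under any alternative run. Sod1 turned to 0.11 with the mean of probe sets. With single arrays left out, Sod1 spanned −0.23 to −0.038, Sod2 spanned −0.011 to 0.22, Gpx3 −0.35 to 0.36 and Gpx7 −0.15 to 0.062. Gpx3 was −0.0014 with quantile normalization and −0.38 with array weights, and Gpx7 was 0.21 with array weights and 0.23 with no filter. Ccs (0.13 to 0.44), Cat, Gpx1 (−0.25 to −0.04) and Gpx4 (0.11 to 0.29) kept their sign under all alternatives that tested them. Cat ran from −0.35 (array weights, limma adjusted p = 0.0744) to −0.14 (without control replicate 2), with limma adjusted p from 0.0744 to 0.9998. Its unadjusted limma p was under 0.05 with no filter (−0.33), the mean of probe sets (−0.28), array weights, and without control replicate 3 (−0.31). That of Gpx1 was under 0.05 with array weights (−0.19) and without control replicate 3. No other gene of the set had one, and the shares of all genes under these settings are not given here. Over all genes, 2 passed with no filter, 1 with the mean of probe sets, 404 with array weights and 0 to 2 when 1 array was left out. The 75th percentile filter (9.20 log2) left 0 passing probe sets and only 5 of the 9 genes. For probe sets within a gene, diffSplice called 4 genes, 65 with no filter, 1 with the 75th percentile filter, 69 with array weights and 2 to 328 when 1 array was left out; the second test called 1, Ctnnb1. With the replicate number as a block, 0 genes and 5 probe sets passed, and diffSplice called 5. Deviations of same-numbered arrays correlated at 0.20, −0.0036 and −0.24 over genes. The labels do not say whether same-numbered samples were paired, and these correlations cannot settle it. Arrays of different numbers ran from −0.29 to 0.29, with control replicate 3 and floxed replicate 2 at 0.29 and control replicate 2 and floxed replicate 3 at 0.28; no label pairs these. The causes of these shifts were not tested.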
